A study of Homo sapiens with 6 samples.

Results

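The feedback genes of ERK signalling were examined in U87 cells, an established human glioblastoma line, sorted by how much of a fluorescent cyclic peptide they had taken up. They comprise 4 dual-specificity phosphatases (DUSP1, DUSP4, DUSP5 and DUSP6), 3 Sprouty genes (SPRY1, SPRY2 and SPRY4), 2 Sprouty-related genes (SPRED1 and SPRED2) and the transcription factor gene ETV5. They were chosen by name as transcriptional feedback regulators of this pathway, and all 10 were found among the 25680 gene symbols of the count tables. All 10 also passed the filter on low counts that left 14598 genes to test.

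Wild-type U87 cells received 500 nM rhodamine-tagged EPP6, a cyclic peptide, for 1 h at 37C, and were then detached and sorted by rhodamine fluorescence. The brightest 30% of cells gave the high-uptake libraries and the dimmest 30% the low-uptake libraries, with 3 libraries in each group, numbered 2, 3 and 4. Every library comes from peptide-treated cells, and cells that received no peptide were not analysed here. The labels do not say whether the libraries come from separate cultures or whether equal numbers mark a shared sort, so p-values measure the spread between these libraries, which may be technical.

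ERK, the last kinase of the RAS-RAF-MEK-ERK cascade, carries signals from growth factor receptors to the nucleus, where it switches on genes that include its own inhibitors. The DUSP enzymes remove the activating phosphates from MAP kinases, Sprouty proteins block the cascade near RAS and RAF, and SPRED proteins bring the RAS inactivator neurofibromin to the membrane. ETV5, an ETS family factor, is itself switched on by ERK, and levels of these transcripts are widely read as a measure of recent ERK output. Glioblastomas commonly carry altered growth factor receptors that feed this pathway.

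Libraries held from 13712263 to 40742857 counts. The first principal component of log counts, with 38% of the variance, separated the groups. High libraries 2, 3 and 4 lay at -27.3, -15.5 and -7.62 and low libraries 2, 3 and 4 at 15.2, 17.5 and 17.8. On the second, which held 31.5% of the variance, both libraries numbered 2 lay at the same end (18.6 for high and 23.8 for low uptake). The other 4 lay between -23.1 and -4.99. The line's markers VIM, CD44 and SPARC were abundant (at least 11291, 619 and 278 TPM in every library), NES stood at 8.28 to 10.9 TPM, and CDKN2A, a gene deleted in U87 cells, had at most 1 count in any library. Of the markers of other cell types, 3 of 5 epithelial, 3 of 5 immune, 3 of 4 endothelial and 2 of 4 neuronal genes stayed under 1 TPM in every library. CDH1, PTPRC, CD3E and CDH5 were among them and STMN2 had 0 counts throughout, whereas CD68 (307 to 369 TPM) and GAD1 (8.06 to 8.87 TPM) were the highest.

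Upstream sequence is shown for DUSP1 and DUSP6. Among DUSP1, DUSP4, DUSP5 and DUSP6, these had the smallest and the largest spread between libraries of the same group. Both stretches are the 250 bases before the RefSeq start site (GRCh38.p14), on the minus strand, at chr5:172771196-172771445 for DUSP1 and chr12:89352502-89352751 for DUSP6. Capitals mark the cyclic AMP response element TGACGTCA and the TATA box TATAAA in DUSP1, and in DUSP6 the ETS core GGAAG, which lies on the other strand and so reads CTTCC.
DUSP1: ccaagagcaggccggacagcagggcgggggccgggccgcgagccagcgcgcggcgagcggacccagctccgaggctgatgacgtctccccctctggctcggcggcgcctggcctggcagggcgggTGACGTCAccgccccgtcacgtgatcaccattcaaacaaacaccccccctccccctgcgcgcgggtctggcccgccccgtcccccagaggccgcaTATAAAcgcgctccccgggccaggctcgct
DUSP6: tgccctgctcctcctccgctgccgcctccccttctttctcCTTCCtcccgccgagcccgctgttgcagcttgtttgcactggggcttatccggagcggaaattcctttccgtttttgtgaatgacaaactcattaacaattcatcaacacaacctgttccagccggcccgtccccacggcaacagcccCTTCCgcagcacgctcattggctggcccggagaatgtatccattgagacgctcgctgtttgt

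The TGACGTCA of DUSP1 began 125 bases and its TATAAA 30 bases before the start site. Searched on both strands over windows of the same length, TGACGTCA was held by 1.65% and TATAAA by 10.7% of the 35116 RefSeq windows. DUSP6 held neither, and its GGAAG is common, with 65.1% of windows holding it. RefSeq windows were matched for 7 of the 10 genes (DUSP1, DUSP6, SPRY1, SPRY2, SPRY4, SPRED1 and SPRED2), 11 windows in all. The longer ETS site CCGGAAG, found in 8.52% of all windows, was held among them by SPRY1 alone, and no window of these genes held an AP-1 site (TGANTCA, 6.57% of all) or a CArG box (1.16% of all). TGACGTCA contains no TGANTCA, whereas every CCGGAAG contains a GGAAG. These matches describe the letters of these windows and show no binding.

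Levels of the 10 genes spanned a wide range when compared per length, in the authors' TPM, a transcript abundance scaled for gene length and depth. DUSP1 was the most abundant, with a mean of 288 TPM over the 6 libraries and a range of 254 to 317 TPM, followed by SPRY2 at 208 TPM (189 to 239.5 TPM). DUSP5 (57.7 TPM), SPRED2 (49.5 TPM), ETV5 (43.5 TPM), DUSP4 (38.7 TPM), DUSP6 (30.7 TPM) and SPRED1 (24.2 TPM) formed a middle group in which each gene's range over libraries overlapped that of the next. SPRY4 came below them at 10.2 TPM (8.09 to 12.7 TPM), and SPRY1 was close to absent at 0.36 TPM (0.18 to 0.517 TPM). Among the 3 Sprouty genes, SPRY2 was therefore the main transcript in both groups, and the TPM ranges of SPRY2, SPRY4 and SPRY1 did not overlap.

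None of the 10 genes passed the test between high and low uptake (edgeR's quasi-likelihood test, Benjamini-Hochberg adjusted p under 0.05 over all tested genes), where 4.29% of all tested genes passed. DESeq2 and limma also called 0 of the 10, while 5.99% and 4.13% of all genes passed in them. At an unadjusted p under 0.05, edgeR gave 1 of the 10, DUSP4, against 18.4% of all tested genes (10.4% higher in high uptake). Of the 10 log2 fold changes (high minus low), 8 were above 0, against 49.3% of all tested genes, and their median was 0.11 against -0.00 for all tested genes. The high and low libraries did not overlap for 2 of the 10, DUSP1 and DUSP4, against 24.4% of all tested genes; in both every high library was above every low library, against 13.0% of all tested genes. Among all tested genes 626 were called, 70.6% of them higher in high uptake (57.0% with GC trends removed), and the number became 282 when high library 2 was left out, 379 for high 4, 276 for low 3 and 232 for low 4. None of the 10 was called with any single library left out, or without both libraries numbered 2, where 5.51% of genes were called. With the GC trend removed 3 of the 10 were called (DUSP1, DUSP4 and SPRED1), against 18.0% of all tested genes. A library averages over its sorted cells, so fewer cells expressing a gene and less of its RNA per cell cannot be told apart.

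**Figure D1:**
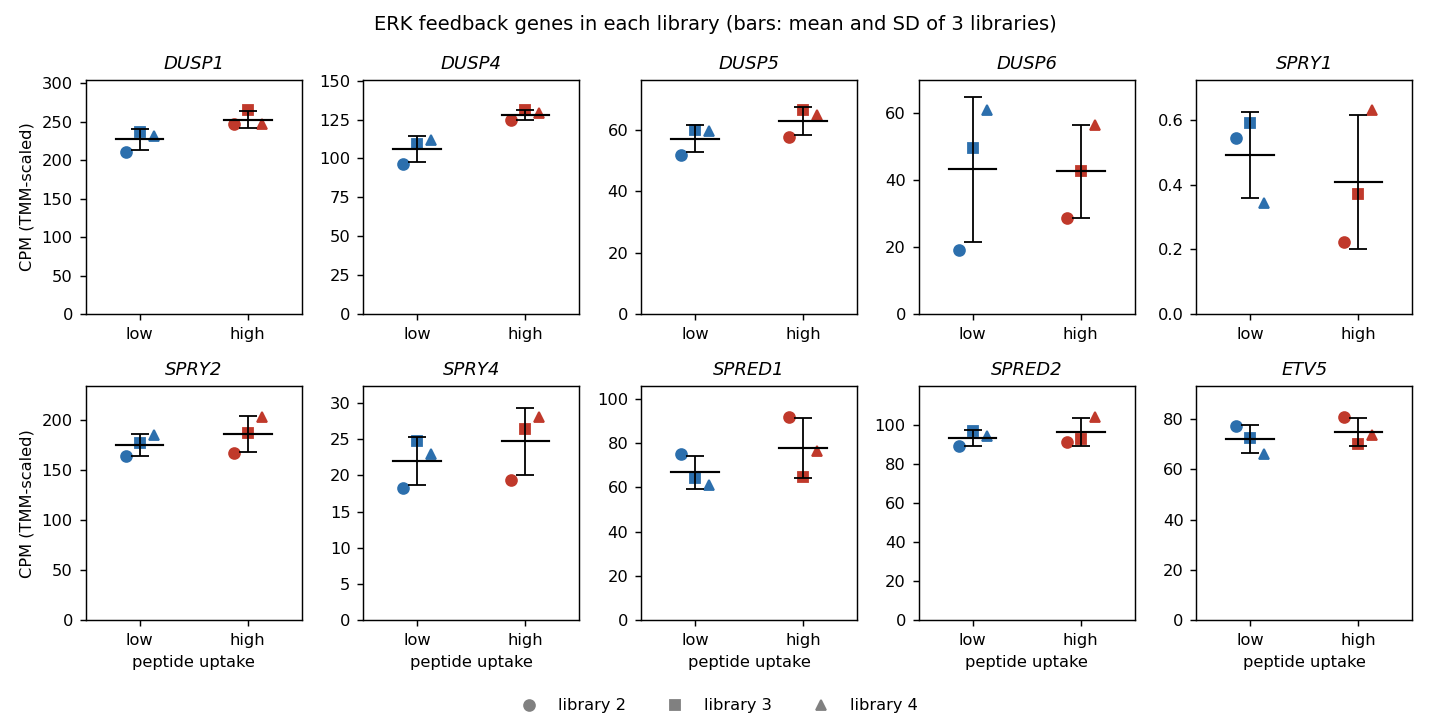
CPM (counts scaled to library size with TMM factors, linear axis from 0) of the 10 feedback genes in each library, with low uptake in blue, high uptake in red and marker shape giving the library number; bars are the mean and SD of 3 libraries. The high and low points are apart for DUSP1 and DUSP4 and overlap for the other genes, and DUSP6 runs from 19.2 to 60.9 CPM with both libraries numbered 2 lowest in their group.

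DUSP4, a nuclear phosphatase that acts on ERK and on the stress kinases, showed the largest positive difference of the 10. It stood at 125, 131 and 129 CPM in high replicates 2, 3 and 4 and at 96.5, 109 and 112 CPM in low replicates 2, 3 and 4. Every high library was above every low library, and low replicate 2 was the lowest. The means were 128 ± 3.32 and 106 ± 8.22 CPM (SD, n = 3 each), a log2 fold change of 0.28 (95% interval 0.10 to 0.46) whose SE was 0.0824 and whose edgeR adjusted p was 0.0886. In an alternative that removed the dependence of each library on GC content, the same difference (log2 0.27) passed at an adjusted p of 0.00255, as did 18.0% of all tested genes. DUSP4 was also the only one of the 10 in the authors' deposited table, a list of 2305 symbols without values, direction or test. Of the genes tested here, 15.8% are in that authors' deposited table.

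DUSP1, the stress-inducible phosphatase of p38, JNK and ERK, differed by less. Its values were 247, 265 and 247 CPM in high replicates 2, 3 and 4 against 211, 237 and 232 CPM in low replicates 2, 3 and 4, again without overlap. The means were 253 ± 10.5 and 227 ± 13.8 CPM (SD, n = 3 each), and the log2 fold change of 0.16 (SE 0.0766, 95% interval -0.01 to 0.33) did not pass (adjusted p = 0.30). It too passed once the GC trend was removed, at log2 0.16 and an adjusted p of 0.0158. DUSP5, a phosphatase specific for ERK in the nucleus, stood at 57.7, 66.3 and 64.7 CPM in high and 51.9, 60.0 and 59.4 CPM in low replicates 2, 3 and 4. Only high replicate 2 fell among the low libraries, and the log2 fold change was 0.14 (95% interval -0.07 to 0.34, adjusted p = 0.477), from 0.07 without low replicate 2 to 0.20 without high replicate 2.

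DUSP6, the cytoplasmic phosphatase specific for ERK and a common readout of ERK output, did not pass and had a wide spread within groups. It stood at 28.7, 42.6 and 56.5 CPM in high replicates 2, 3 and 4 and at 19.2, 49.7 and 60.9 CPM in low replicates 2, 3 and 4. The groups overlapped fully, and both libraries numbered 2 were lowest in their group. The means were 42.6 ± 13.9 and 43.2 ± 21.6 CPM (SD, n = 3 each), and the log2 fold change was -0.01, with an SE of 0.524 and an edgeR adjusted p of 0.995. Its 95% interval ran from 0.381-fold to 2.59-fold, so differences of that size were not detectable for this gene. Without both libraries numbered 2 the log2 fold change was -0.14 (adjusted p = 0.558), and over single libraries left out it ran from -0.38 without low replicate 2 to 0.32 without low replicate 4. GENCODE v29 places exons of AC024909.2 on the opposite strand over 1875 of the 4632 exonic bases of DUSP6 (40.5%). The library kit was directional, but whether the counting used strand is not given in the sources used here. Whether reads of AC024909.2, which has no row in the count tables, entered the DUSP6 counts is therefore not known.

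**Figure D2:**
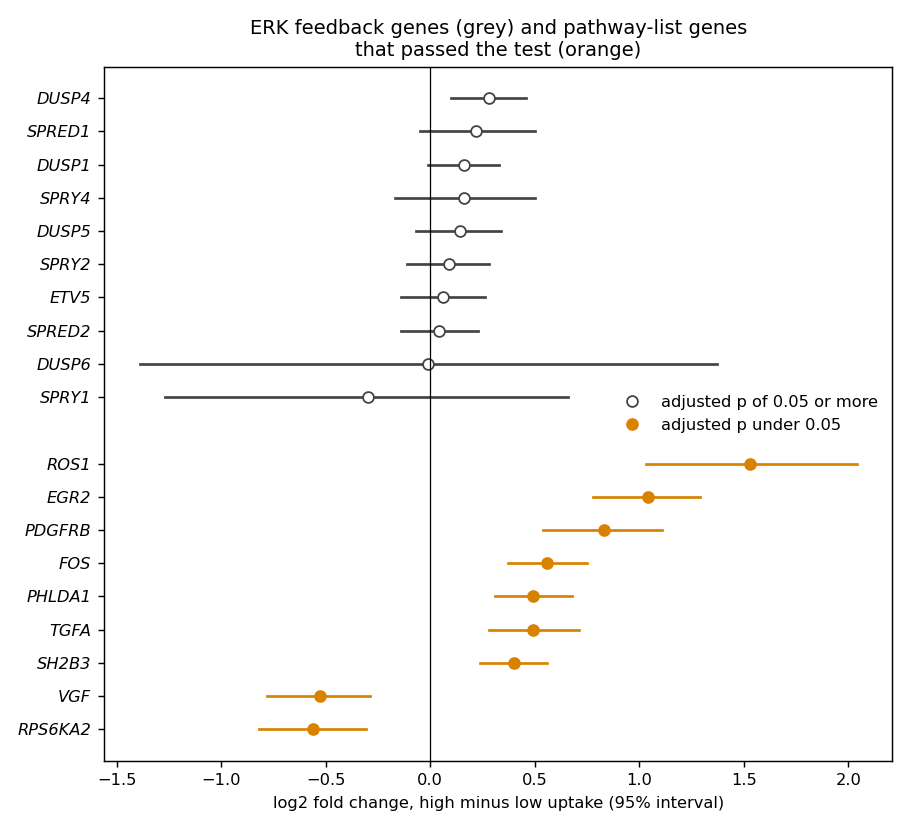
Log2 fold change (high minus low uptake) with its 95% interval for the 10 feedback genes (grey) and for the 9 genes of the related lists that passed the test (orange); filled points passed edgeR's adjusted p of 0.05. The intervals of DUSP6 (-1.39 to 1.37) and SPRY1 (-1.27 to 0.66) are the widest, and that of DUSP4 (0.10 to 0.46) alone among the 10 lies above 0.

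Among the Sprouty genes, which encode membrane-associated inhibitors induced by growth factors, SPRY2 stood at 167, 187 and 203 CPM in high and 164, 177 and 185 CPM in low replicates 2, 3 and 4. The groups overlapped, with a log2 fold change of 0.09 (95% interval -0.11 to 0.28, adjusted p = 0.670), whose upper end is 1.21-fold. It ran from 0.03 without high replicate 4 to 0.16 without high replicate 2. SPRY4 stood at 19.4, 26.4 and 28.1 CPM in high and 18.3, 24.7 and 22.9 CPM in low replicates 2, 3 and 4 (log2 0.16, 95% interval -0.17 to 0.50, adjusted p = 0.619), and its log2 fold change ran from 0.04 without low replicate 2 to 0.32 without high replicate 2. In both genes, as in DUSP6, the library numbered 2 was the lowest of each group. SPRY1 rested on 9, 5 and 21 counts in high and 21, 13 and 7 counts in low replicates 2, 3 and 4. At this depth its log2 fold change of -0.30 (95% interval -1.27 to 0.66, adjusted p = 0.783) could not show a difference of either direction, and it became 0.11 without high replicate 2.

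The SPRED genes, whose products recruit neurofibromin to RAS, differed from each other in spread. SPRED1 stood at 91.9, 64.7 and 76.6 CPM in high and 75.2, 64.2 and 60.9 CPM in low replicates 2, 3 and 4. Here the libraries numbered 2 were the highest of each group, and high replicate 3 fell among the low libraries. The log2 fold change was 0.22 (SE 0.126, 95% interval -0.05 to 0.50, adjusted p = 0.382), and it passed with the GC trend removed (log2 0.21, adjusted p = 0.0343). It was 0.08 without high replicate 2. SPRED2 ranged over 88.9 to 104 CPM in all 6 libraries, with means of 96.0 ± 7.18 and 93.3 ± 4.08 CPM (SD, n = 3 each) and a log2 fold change of 0.04 (95% interval -0.14 to 0.23, adjusted p = 0.844).

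ETV5, the ETS factor of the set, ranged from 66.2 to 80.8 CPM, with 74.8 ± 5.51 CPM in high and 72.0 ± 5.56 CPM in low uptake (SD, n = 3 each). Its log2 fold change of 0.06 (95% interval -0.14 to 0.26, adjusted p = 0.809) was smaller than the spread between libraries. Like SPRED1, it was highest in the library numbered 2 of each group. Exons of DGKG share 164 bases (2.83%) of the ETV5 exons on the same strand in GENCODE v29.

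Several of these genes had their extreme value in the same numbered library of both groups. In 7 of the 10 (all but SPRY1, SPRED1 and ETV5) the library numbered 2 was the lowest in both groups, against 24.7% of all tested genes, and in SPRED1 and ETV5 it was the highest in both, against 26.1%. The SD of log2 CPM within groups was 0.717 for DUSP6, which ranked 21 among the 10992 genes of at least 5 CPM, where the median was 0.123. SPRY4 (0.255) and SPRED1 (0.211) also lay above most genes, at percentiles 95.5 and 88.9. DUSP1 (0.0759), DUSP4 (0.085), SPRED2 (0.0872), ETV5 (0.109), DUSP5 (0.112) and SPRY2 (0.117) lay below the median. The widest spreads were those of TNFAIP3 (SD 1.84), IL6 (1.84), LBH (1.54), CCL2 (1.37) and ATP2A3 (1.27). CXCL3 (1.13), MEG3 (1.09), NFKBIZ (1.04), CXCL2 (1.04), MMP1 (1.01) and WTAPP1 (0.99) came next, ahead of LIF (0.97). Between LIF and DUSP6 lay CXCL8 (0.95), IL36B (0.95), PTX3 (0.94), RASD2 (0.82), KDM6B (0.82), IRF1 (0.79), NR4A1 (0.79) and ZC3H12A (0.79). IL6 and LIF are in the list of other genes switched on by ERK that is counted below, and NR4A1 is among the immediate early genes. The rest of these genes above DUSP6 are in none of the related lists. Apart from LIF, these genes were named after their values were seen. What sets the libraries numbered 2 apart is not given in the labels, and its part in these values was not tested.

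**Figure D3:**
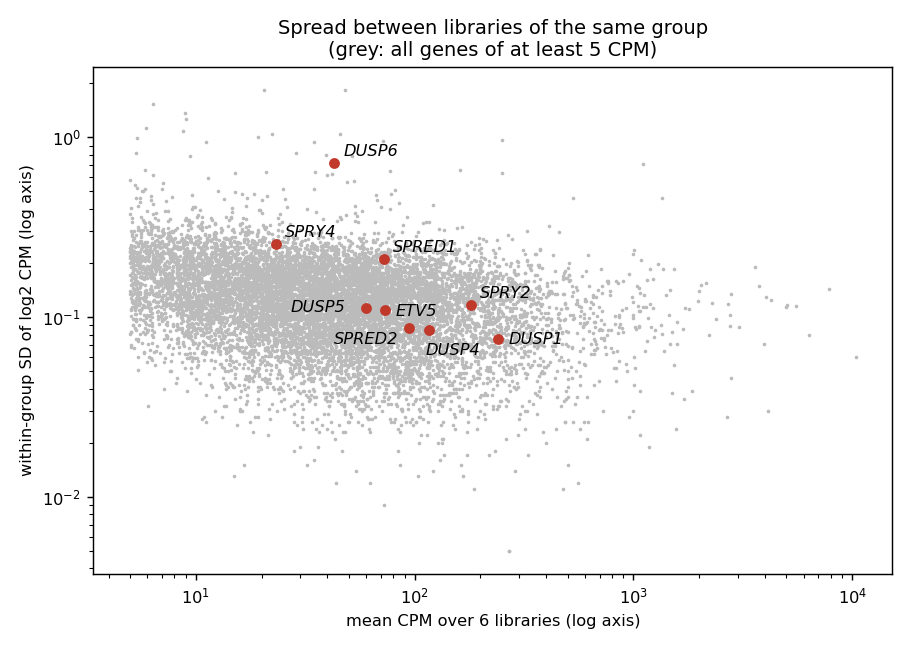
SD of log2 CPM between libraries of the same group against mean CPM (both axes logarithmic) for the 10992 genes of at least 5 CPM in grey, with the 9 feedback genes at that level in red. DUSP6 lies at 0.717, far above the median of 0.123, and DUSP1 lies at 0.0759.

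Across the 6 libraries several members had similar profiles, given as a description over libraries that share group and number. Pearson's r of log2 CPM was 0.95 for DUSP1 with DUSP4, 0.92 for SPRY2 with SPRY4, 0.92 for DUSP5 with SPRY4 and 0.83 for DUSP6 with SPRY4 (n = 6 libraries). SPRED1 and ETV5 had an r of 0.91 with each other and of -0.57 and -0.76 with DUSP6. Of all genes of at least 5 CPM, the 5 most like DUSP6 were LIF (r = 0.990), F3 (0.987), NFKBIA (0.986), PIDD1 (0.986) and TXNDC11 (0.984), over the same 6 libraries. LIF is one of the other genes switched on by ERK that are counted below. Over the tested genes of that list, r with DUSP6 ran from -0.645 (HMGA2) to 0.990 (LIF). HBEGF (0.968) and IL6 (0.962) of that list were close to LIF, and were picked with their values known. They were not the next most like DUSP6 among all genes of at least 5 CPM. Between TXNDC11 and HBEGF lay, in falling order of r, NR4A2, NFKBIZ, CCL2, NFATC2, PLK3 and TNFAIP3, none of them in that list. The likeness to DUSP6 was therefore not confined to genes of that list, and its cause was not tested.

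LIF, a cytokine of the interleukin-6 family, stood at 136, 269 and 322 CPM in high and 82.2, 331 and 368 CPM in low replicates 2, 3 and 4. F3, which encodes tissue factor, ranged from 20.8 to 45.9 CPM and NFKBIA, the inhibitor of NF-kB that NF-kB itself induces, from 44.4 to 95.9 CPM. In each of the 5 genes low replicate 2 was the lowest library and high replicate 2 the next. TXNDC11 spanned only 51.7 to 57.4 CPM, so its likeness to DUSP6 is in profile and not in the size of the differences.

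**Figure D4:**
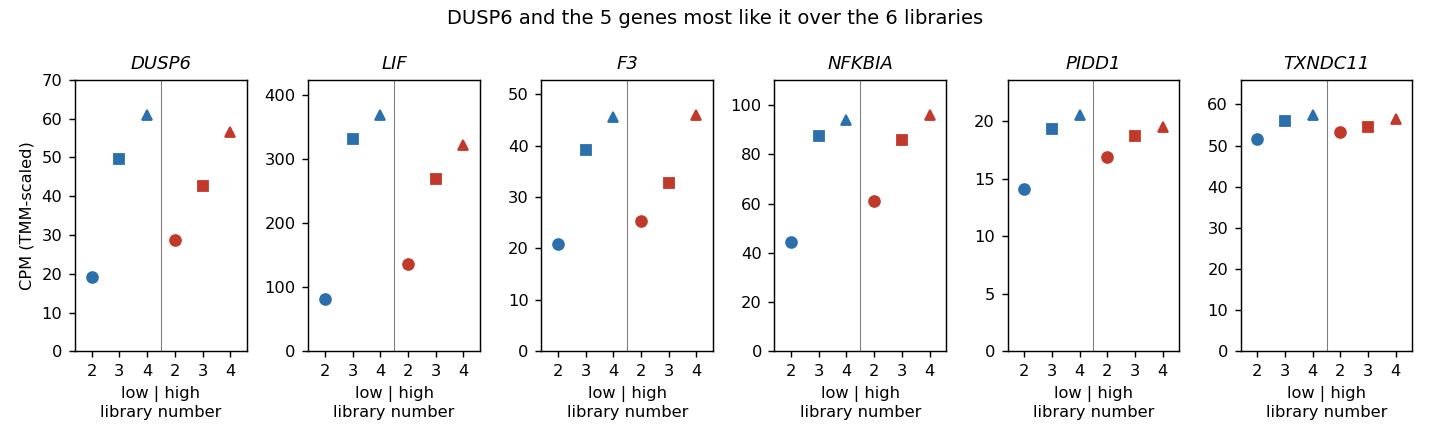
CPM (TMM-scaled, linear axes from 0) of DUSP6 and the 5 genes with the highest Pearson correlation to it, in low-uptake (blue) and high-uptake (red) libraries 2, 3 and 4. Library 2 is the lowest point of each group in all 6 panels, with LIF at 82.2 and 136 CPM and DUSP6 at 19.2 and 28.7 CPM.

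Related lists of the pathway were counted in the same fit, where 3.03% of all tested genes passed as higher and 1.26% as lower in high uptake. Of the other MAP kinase phosphatases, 7 of 9 were tested and 0 passed edgeR's test, none of them at an unadjusted p under 0.05. Their log2 fold changes ran from -0.30 to -0.02 (median -0.10, against -0.00 for all tested genes). DUSP22, the one of smallest p, stood at 4.58 ± 0.124 CPM in high and 5.6 ± 0.598 CPM in low uptake (SD, n = 3 each; log2 -0.29, adjusted p = 0.282). DESeq2 and limma called 0 of these phosphatases as well.

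Of 16 tested other negative regulators, 1 rose, 0 fell and 15 did not pass (median log2 0.03). SH2B3, an adaptor that restrains cytokine and growth factor receptors, stood at 810.3, 849.6 and 839 CPM in high and 587, 639 and 673 CPM in low replicates 2, 3 and 4. The groups were far apart relative to their spread (log2 0.40, SE 0.0737, adjusted p = 0.0132), and the adjusted p was 0.0506 without low replicate 3. NF1, which encodes the neurofibromin that SPRED proteins recruit, stood at 58.4 and 59.2 CPM on average (log2 -0.02), and IL17RD, another feedback inhibitor of growth factor signalling, at 2.76 and 3.46 CPM (log2 -0.35). Neither passed, and both were picked with their values known.

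The core of the cascade gave 1 call among 26 tested genes, none of them higher (median log2 0.05). RPS6KA2, a kinase downstream of ERK, fell from 35.1 ± 1.92 CPM in low to 23.9 ± 3.66 CPM in high uptake (SD, n = 3 each; log2 -0.56, SE 0.116, adjusted p = 0.0207), and its adjusted p was above the threshold when any 1 of these libraries was left out: high 2 (0.0575), high 4 (0.0685), low 3 (0.0783) and low 4 (0.0786). MAPK3, which encodes an ERK kinase, did not pass, at 87.1 ± 10.2 CPM in high and 80.3 ± 2.82 CPM in low uptake (SD, n = 3 each; log2 0.11, edgeR adjusted p = 0.572). Transcript levels do not report the phosphorylation of a kinase, which was not measured here.

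Among 22 tested other genes switched on by ERK, 1 rose and 1 fell (median log2 -0.10). PHLDA1, a gene induced by growth factors, stood at 216, 191 and 218 CPM in high and 139, 149 and 156 CPM in low replicates 2, 3 and 4, without overlap (log2 0.49, SE 0.0835, adjusted p = 0.00796). VGF, a secreted neuropeptide precursor, fell by 0.53 on the log2 scale (SE 0.112, adjusted p = 0.0228), and its adjusted p was 0.0653 with high library 2 left out, 0.085 for high 4, 0.0683 for low 3 and 0.11 for low 4. CCND1, the cyclin D1 gene, stood at 675 ± 52.1 CPM in high and 763 ± 23.8 CPM in low uptake (SD, n = 3 each; log2 -0.18, adjusted p = 0.243), and passed with the GC trend removed (log2 -0.19, adjusted p = 0.0264). DESeq2 called 4 of the 22, and with 1 library left out edgeR called 1 (high 2, high 4, low 3 or low 4 left out) to 4 (high 3 left out).

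Of 13 tested immediate early genes, the transcription factor genes switched on within minutes of growth factor stimulation, 2 rose and 0 fell (median log2 0.14). EGR2 stood at 28.1 to 30.5 CPM in high and 11.9 to 15.8 CPM in low uptake (log2 1.04, SE 0.117, adjusted p = 9.95e-04), and FOS at 110.1 ± 8.98 against 74.5 ± 3.49 CPM (SD, n = 3 each; log2 0.56, adjusted p = 0.00501). EGR1 stood at 265 ± 18.1 against 212 ± 13.8 CPM (SD, n = 3 each), at log2 0.32 and an adjusted p of 0.0503. It passed in DESeq2 (0.0158), unfiltered (0.0228), after GC trend removal (3.11e-04) and when neither library 2 was used (0.0218). It did not pass in any of the 6 fits that dropped a single library (log2 0.26 to 0.37, adjusted p 0.0584 to 0.197). JUN, named with its values known, stood lower in high uptake without overlap, at 259, 297 and 274 CPM in high and 306, 333 and 356 CPM in low replicates 2, 3 and 4, and did not pass (log2 -0.26, adjusted p = 0.108).

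Upstream of the cascade, 2 of 12 tested receptor tyrosine kinase genes rose and 0 fell (median log2 0.13). PDGFRB, a receptor for platelet-derived growth factors, stood at 50.5, 57.7 and 48.0 CPM in high and 23.5, 32.0 and 32.6 CPM in low replicates 2, 3 and 4 (log2 0.83, SE 0.129, adjusted p = 0.00535). ROS1 rose from 0.852 ± 0.156 to 2.36 ± 0.319 CPM (SD, n = 3 each; log2 1.53, adjusted p = 0.00425). Its level was low, at 0.223 to 0.884 TPM. It rested on 100, 27 and 87 counts in high and 26, 21 and 19 counts in low replicates 2, 3 and 4. PDGFRA stood at 3.36 ± 0.313 against 2.33 ± 0.215 CPM (log2 0.52, adjusted p = 0.113; 0.0417 with the GC trend removed), and EGFR at 127 ± 6.63 against 125 ± 2.38 CPM (log2 0.03, 95% interval -0.14 to 0.19, adjusted p = 0.910), n = 3 each. Of 14 tested ligand genes, TGFA, which encodes a ligand of EGFR, rose (log2 0.49, SE 0.0999, adjusted p = 0.0195) and 0 fell. With high library 2, high 4 or low 3 left out its adjusted p was 0.0577, 0.0633 and 0.0668.

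**Figure D5:**
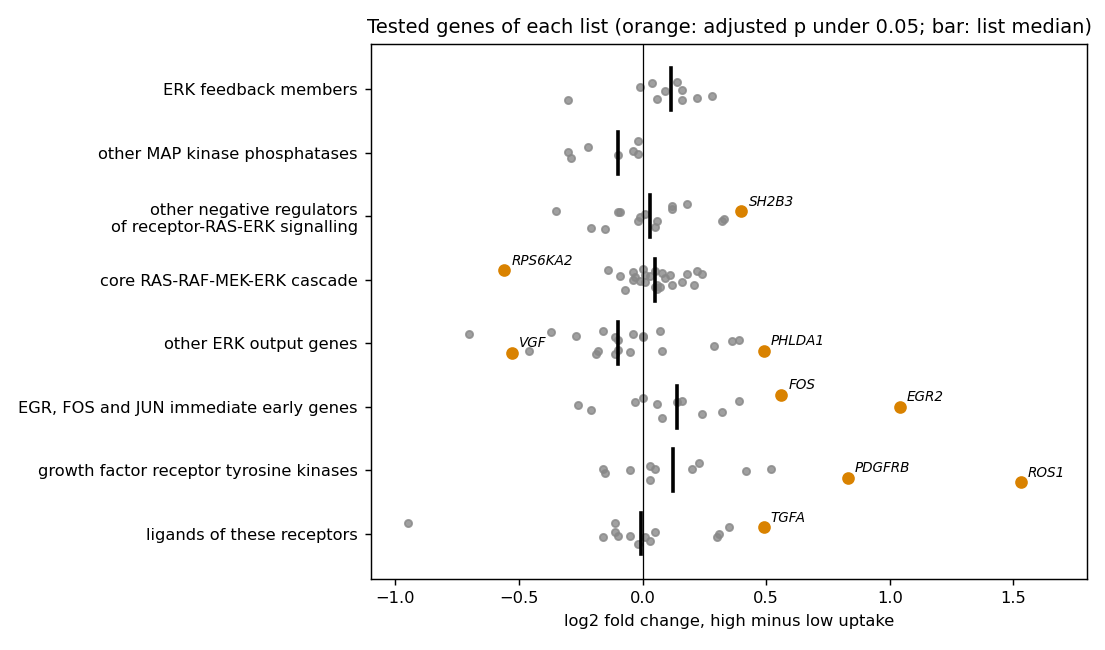
Log2 fold change (high minus low uptake) of each tested gene in the 10 feedback genes and in the 7 related lists, with the list median as a black bar and genes past an adjusted p of 0.05 in orange. No feedback gene is orange and their median is 0.11, while EGR2 (1.04), FOS (0.56), PHLDA1 (0.49), PDGFRB (0.83), ROS1 (1.53), TGFA (0.49) and SH2B3 (0.40) lie to the right. RPS6KA2 (-0.56) and VGF (-0.53), also orange, lie to the left.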

How the data were processed

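Total RNA of 3 high-uptake and 3 low-uptake libraries was prepared with a directional kit (labels' protocols). Reads were processed with fastp, STAR and featureCounts on hg19, per the submitters' processing notes; the annotation, strand setting or tool version is not given in the sources used here. Per the file headers, the deposited tables hold counts per gene symbol beside the authors' FPKM and TPM. Counts were tested, FPKM gave only the authors' gene length, and TPM served to compare genes. The authors' further file lists symbols without values (other).

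Genes were kept by edgeR's filterByExpr (minimum count 10, minimum total 15), scaled by TMM and tested by edgeR 4.0.16's quasi-likelihood F-test (robust, two-sided, no covariate, Benjamini-Hochberg over 14598 genes, threshold 0.05). CPM values are TMM-scaled; log2 CPM used a prior count of 2. SEs are the log2 fold change divided by the square root of F, and 95% intervals use the test's degrees of freedom. DESeq2 1.42.0 and limma 3.58.1 were alternatives. In simulated counts for these 14598 genes and libraries, of 50 genes for each size edgeR called 24% when changed 1.3-fold, 72% when changed 1.5-fold and 94% when changed 2-fold, and 0.118% of unchanged genes. GC content came from the longest GENCODE v29 transcript and covered 96.7% of tested genes.

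The 10 genes and the 7 lists were chosen with earlier results of these data known. Named genes are the 10; in each list the 3 of smallest p that passed in each direction, or else the 1 of smallest p; MAPK3, EGFR, PDGFRA, FOS, EGR1 and CCND1, with 1 further gene that is not reported here; and the 5 most correlated with DUSP6. Outside this rule, NF1, IL17RD, JUN, TNFAIP3, IL6, LBH, CCL2, ATP2A3, NR4A1, HBEGF and HMGA2 were named after their values were seen. So were the further genes listed by spread within groups or by likeness to DUSP6. A library numbered 1 was not analysed here for either group.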

Additional observations from a re-analysis of the deposited data

How the results depend on the processing

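Under 18 alternatives, 626 called genes became 3176 when the replicate number entered edgeR as a block, 2622 with the GC trend removed and 4072 with both; the share of calls higher in high uptake went from 70.6% to 55.4% with the block. Called feedback genes went from 0 to 3 with the block (DUSP1, DUSP4 and SPRED1; adjusted p 0.0260, 4.04e-04 and 0.0130), 3 with the GC trend removed and 4 with both. Of the 106 tested genes of the related lists, 9 were called in the main fit and 31, 23 and 39 in these alternatives, in the same order. Of all tested genes the main fit called 4.29%, the block 21.8%, the fit with the GC trend removed 18.0%, and block and GC trend together 27.9%. Equal numbers are not said to mark pairs: deviations from group means correlated at 0.452, 0.304 and 0.0873 for numbers 2, 3 and 4, and low replicate 4 correlated better with high replicate 3 (0.216), so the block stands here as a hint from the data. With 1 library left out, the counts ran from 232 to 738, stayed at 0 (0 to 0) for the feedback genes, ran from 5 (without low replicate 3) to 12 for the lists, and the median log2 fold change of the 10 from 0.05 to 0.17. The cause was not tested.

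Among the named genes, signs turned only for those that did not pass. DUSP6 became 0.13 in limma, 0.08 with the block and 0.06 with block and GC trend (-0.38 to 0.32 over single libraries left out); SPRY1 0.22 without both libraries numbered 2 (-0.90 to 0.11); EGFR -0.03 with the length trend removed; LIF 0.11 in limma and 0.07 with the block, with or without the GC trend (-0.53 to 0.23); F3 0.05 in limma, 0.02 with the block, 0.01 with the length trend removed and 0.01 with block and GC trend (-0.29 to 0.22); PIDD1 -0.05 without both libraries numbered 2 (-0.12 to 0.14). Over single libraries left out, SPRED2 ran from -0.01 to 0.08, ETV5 from -0.01 to 0.11, NFKBIA from -0.17 to 0.30 and TXNDC11 from -0.05 to 0.02. Depth limits SPRY1, at 5 to 21 counts.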
